A study of Homo sapiens with 20 samples.

Results

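The data describe 32 genes of the machinery that docks, primes and fuses secretory granules with the plasma membrane, in human pancreatic cells with and without the RNA demethylase ALKBH5. The genes were listed by name for their roles, with earlier results of these data known. Each was found by its Ensembl identifier among 60624 identifiers listed for human islet-like organoids (hILOs) and 60623 for pancreatic progenitors (PPs). They comprise 4 SNARE genes, 6 synaptotagmins, 8 Rab proteins or Rab effectors, 6 priming factors, 2 complexins and 6 proteins of the granule or vesicle membrane. All 32 were present in both sets of files.

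ALKBH5 removes the methyl mark of *N*6-methyladenosine (m6A) from mRNA, and the study asked how its loss alters pancreatic differentiation of human pluripotent stem cells. RNA was sequenced from hILOs, with 2 WT and 2 A5-KO libraries, and from PPs of both genotypes exposed to actinomycin D (Act D), which blocks transcription, at 1 μg/ml for 0, 1, 2 or 3 h, with 2 libraries for each genotype and time. Both genotypes descend from MEL1 INS GFP/W, a human embryonic stem cell line that carries a GFP reporter in 1 copy of the insulin gene. In A5-KO, *ALKBH5* was cut with CRISPR-Cpf1 at exon 1 and colonies were picked, so the knockout rests on clonal lines and clone and genotype cannot be told apart. The PP media ended at day 14. The hILO media are given up to day 22 in the labels and for longer in the study's methods.

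In endocrine cells and neurons, a granule is tethered by a Rab protein with its effectors, made ready by priming factors such as the Munc13 and CAPS proteins, and fused when a SNARE on the vesicle zips up with SNAREs on the plasma membrane. Synaptotagmins sense calcium at that step and complexins hold the assembled SNAREs until calcium arrives. In the islet this chain releases insulin, glucagon and somatostatin. Many of its genes are shared with neurons and are silenced elsewhere by the repressor REST, which binds a DNA element called RE1.

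Because this repressor is known for such genes, stretches that resemble RE1 were looked for near the members' gene starts, and those found are printed to show which members carry them. The letters searched were TTCAGCACC, any 2 bases, and GGACAGCGC, on both strands, with at most 3 mismatches among the 18 letters. In RefSeq promoters, which run from 250 bases before to 50 bases after the start, such a stretch was found in 1 of 23 members, *SYN1*, and in 43 of 27305 genes (0.157%). In a wider window of 5000 bases either side of the GENCODE gene start, which was chosen after the data were seen, 7 of the 32 members held one, as did 505 of 20033 protein-coding genes (2.52%). Each stretch is given 5′ to 3′ on its own strand of GRCh38, with capitals for letters equal to the search letters and lower case for mismatches and for the 2 free bases.
SYT5 (chr19:55180201-55180220, minus strand, exonic UTR, 78 bases after the start): aTCAGCACCcgGGACAGCGC
SYT4 (chr18:43277294-43277313, minus strand, exonic UTR, 231 bases after the start): TTCAGCACCtcGGACAGaaC
PTPRN (chr2:219308320-219308339, minus strand, exon of a transcript without coding annotation, 1318 bases after the start): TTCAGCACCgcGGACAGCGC
SYP (chrX:49200123-49200142, minus strand, intron, 85 bases after the start): TcCAGCACCgtGGACAGaGC
SYN1 (chrX:47620071-47620090, minus strand, upstream, at -224 from the start): TTCAGCACCgcGGACAGtGC
CADPS (chr3:62876291-62876310, minus strand, between genes, at -885 from the start): TTCAGCACgttGGcCAGCtC
RAB3D (chr19:11349313-11349332, plus strand, in an exon of the neighbour CCDC159, at -3053 from the start): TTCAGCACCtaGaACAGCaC
The stretch at *PTPRN* matched all 18 letters. These are matches of letters, and binding was not measured. *REST* mRNA itself was at 5.17 and 5.50 TPM in WT hILOs against 4.33 and 1.05 TPM in A5-KO hILOs (limma adjusted *p* = 0.28), and at 49.0 and 39.5 CPM in WT PPs against 61.0 and 44.3 CPM in A5-KO PPs at 0 h (limma adjusted *p* = 0.45). None of the 8 genes of the REST complex list was called at either stage.

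The targeted gene was checked first. *ALKBH5* was at 78.8 and 81.9 TPM (a measure scaled for gene length and for the library total) in WT hILOs and at 4.16 and 3.42 TPM in A5-KO hILOs. In PPs at 0 h it was at 149 and 172 CPM (reads scaled for the library total alone) in WT and at 19.1 and 18.8 CPM in A5-KO. A gene was called lower or higher when its Benjamini-Hochberg adjusted *p* in a limma fit over all genes was below 0.05 and its change exceeded 1.5-fold on the log2(value + 1) scale, which understates changes of genes with low values. The PP libraries held between 30516384 and 35206514 reads, whereas TPM keeps no depth, so the counting error of the hILO values is unknown. In such bulk RNA, fewer cells of a type and less RNA per cell cannot be told apart.

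In hILOs, *SYT5*, *RAB3A*, *DOC2B* and *PTPRN* were lower in A5-KO and *SYTL5* was higher. These were 4 lower and 1 higher of the 30 members tested, against 4.09% of all 17300 tested genes called lower and 2.70% called higher. The 4 lower genes differed by 1.6- to 2.18-fold, and *SYTL5*, which binds Rab27 proteins on granules, by 1.80-fold. The core SNAREs, the complexins and most synaptotagmins were not called. The median log2 fold change was 0.01 over the members and -0.06 over all tested genes. At an unadjusted *p* below 0.05 with the same fold limit, 6 members were lower and 1 was higher, against 7.35% and 4.63% of all tested genes. When any 1 of the 4 libraries was left out, none of the 5 called members passed, with limma adjusted *p* between 0.057 and 0.14 and the same direction each time.

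**Figure D1:**
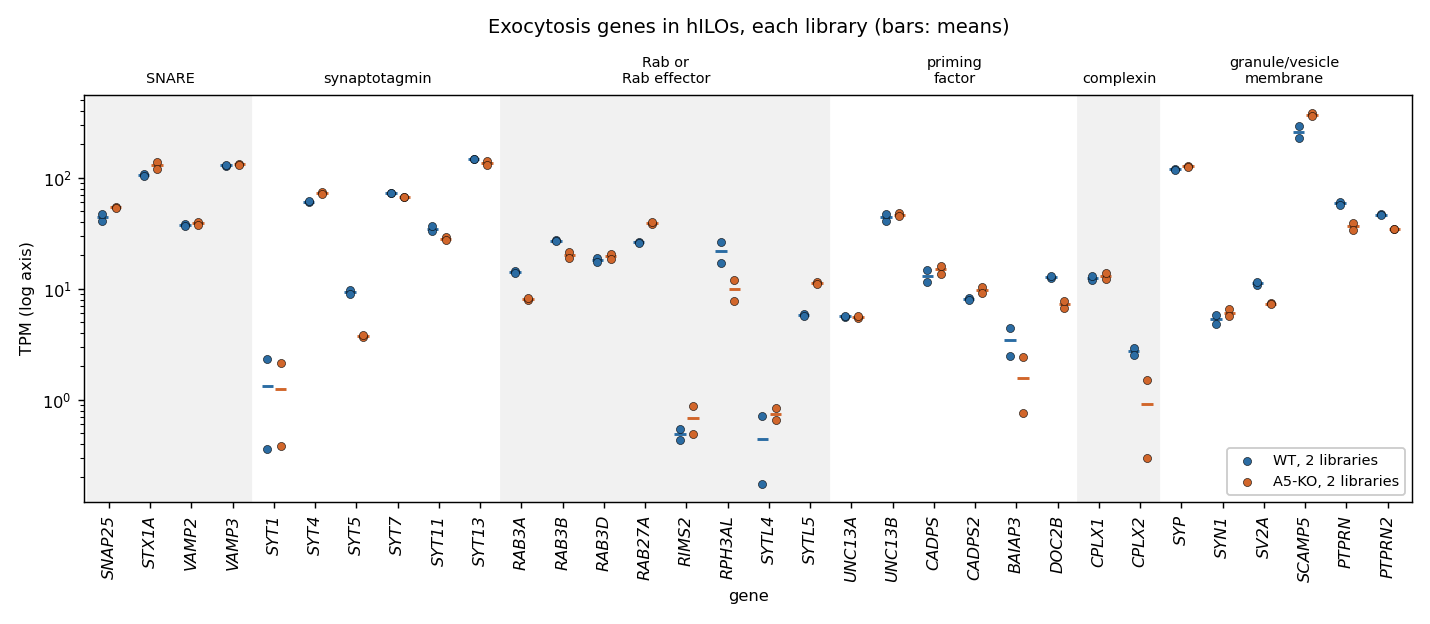
TPM of all 32 exocytosis genes in the 2 WT (blue) and 2 A5-KO (orange) hILO libraries on a log axis, grouped by role, with a bar at each mean. *SCAMP5* lies highest, *RIMS2* and *SYTL4* stay below 1 TPM in every library, and the WT and A5-KO points of *SYT5*, *RAB3A*, *DOC2B*, *PTPRN* and *SYTL5* are apart.

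The SNAREs form the fusion engine itself. *SNAP25*, the plasma membrane SNARE cut by botulinum toxin, was at 41.0 and 47.3 TPM in WT against 55.1 and 53.8 TPM in A5-KO hILOs. Its plasma membrane partner *STX1A* was at 109 and 104 TPM in WT against 138 and 121 TPM in A5-KO. Both genes had the A5-KO libraries above the WT libraries, with log2 fold changes of 0.30 and 0.28, and neither passed (limma adjusted *p* = 0.10 for both). *VAMP2*, the vesicle SNARE of regulated secretion, was at 38.6 and 36.7 TPM in WT against 40.0 and 37.8 TPM in A5-KO, so the genotypes overlapped. *VAMP3*, a vesicle SNARE used in most cell types, was at 129 and 130 TPM in WT against 134 and 131 TPM in A5-KO. The log2 fold changes of *VAMP2* and *VAMP3* were 0.04 ± 0.07 and 0.03 ± 0.04 (standard error).

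Among the synaptotagmins, the calcium sensors and their relatives, *SYT5* changed and *SYT13* was the most abundant. *SYT5*, a sensor of dense core granules, was at 9.67 and 8.95 TPM in WT against 3.64 and 3.81 TPM in A5-KO hILOs, a log2 difference of -1.12 (standard error 0.13, limma adjusted *p* = 0.016). The genotypes did not overlap. *SYT4*, which tunes the calcium response of beta cells as they mature, was at 60.0 and 61.9 TPM in WT against 74.9 and 71.6 TPM in A5-KO (log2 fold change 0.26, limma adjusted *p* = 0.052). *SYT7*, a high-affinity sensor of insulin and glucagon granules, was at 73.4 TPM in both WT libraries and at 67.0 and 67.6 TPM in A5-KO (log2 fold change -0.12, limma adjusted *p* = 0.16). For *SYT4* all A5-KO libraries were above WT, and for *SYT7* all were below. *SYT13*, which binds no calcium and marks endocrine precursors, was at 148 and 147 TPM in WT against 143 and 129 TPM in A5-KO. *SYT11*, another member without calcium binding, was at 33.1 and 36.5 TPM in WT against 29.4 and 27.4 TPM in A5-KO. *SYT1*, the fast sensor of neurons, ranged from 0.36 to 2.33 TPM within WT alone. Of the 6 synaptotagmins, 1 was lower, none was higher and 5 were not called.

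In the Rab group 1 gene was lower and 1 was higher. *RAB3A*, the main Rab3 of neurons and beta cells, was at 14.6 and 13.8 TPM in WT against 7.97 and 8.29 TPM in A5-KO hILOs (log2 fold change -0.74, standard error 0.10, limma adjusted *p* = 0.023). *SYTL5* was at 5.96 and 5.73 TPM in WT against 11.5 and 11.1 TPM in A5-KO (log2 fold change 0.85, standard error 0.11, limma adjusted *p* = 0.021). Its partner *RAB27A*, which carries granules to the cell periphery, was at 26.6 and 26.1 TPM in WT against 38.0 and 39.6 TPM in A5-KO. *RAB27A* passed the test on *p* (limma adjusted *p* = 0.018) but its 1.46-fold change stayed within the fold limit, and it was called under median-of-ratios scaling and quantile normalization.

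The other Rab3 genes were not called. *RAB3B* was at 27.4 and 26.9 TPM in WT against 21.5 and 19.0 TPM in A5-KO (log2 fold change -0.41, limma adjusted *p* = 0.059). *RAB3D*, the Rab3 of exocrine granules, overlapped between the genotypes, with 19.1 and 17.4 TPM in WT against 20.7 and 18.6 TPM in A5-KO. The differences between the Rab3 genes were not tested. *RPH3AL* (Noc2), an effector that Rab3 and Rab27 share, was at 26.2 and 17.2 TPM in WT against 12.1 and 7.83 TPM in A5-KO. The difference of -1.05 on the log2 scale had a standard error of 0.29 and did not pass (limma adjusted *p* = 0.094). *RIMS2*, an active zone scaffold, and *SYTL4*, the granule effector granuphilin, were below 1 TPM in all 4 libraries and were not tested. The exons of *RAB3A* overlap those of *MPV17L2* on the opposite strand over 9.24% of their bases, and those of *SYTL4* overlap *SRPX2* over 39.0%. Those of *RAB3D* overlap an unnamed gene on the opposite strand over 20.7%. The strand setting of the counting was not given in the sources used here.

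Of the 6 priming factors, *DOC2B* alone was called. *DOC2B*, a calcium sensor that binds Munc13 and SNAREs in beta cells, was at 12.5 and 13.0 TPM in WT against 6.72 and 7.79 TPM in A5-KO hILOs (log2 fold change -0.74, standard error 0.12, limma adjusted *p* = 0.032). *UNC13B*, a Munc13 protein, was at 40.8 and 47.5 TPM in WT against 48.2 and 45.1 TPM in A5-KO. *CADPS*, the CAPS1 protein of dense core granules, was at 11.4 and 14.8 TPM in WT against 13.7 and 16.2 TPM in A5-KO. Both overlapped between the genotypes. *UNC13A* stayed between 5.42 and 5.74 TPM in the 4 libraries and *CADPS2* between 8.00 and 10.3 TPM. *BAIAP3*, a Munc13 relative of dense core vesicles, varied from 2.48 to 4.45 TPM within WT and from 0.76 to 2.41 TPM within A5-KO.

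The complexins differed from each other in level. *CPLX1* was at 12.1 and 12.9 TPM in WT against 12.3 and 13.9 TPM in A5-KO hILOs, so it overlapped. *CPLX2* was lower in level, at 2.96 and 2.55 TPM in WT against 0.30 and 1.52 TPM in A5-KO (log2 fold change -1.05, standard error 0.38, limma adjusted *p* = 0.16). Neither was called, and the spread between the A5-KO libraries of *CPLX2* was wide.

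On the granule and vesicle membrane, *PTPRN* was called and its relative *PTPRN2*, the other islet autoantigen of the IA-2 family, passed on *p* alone. *PTPRN* (IA-2) was at 61.1 and 57.3 TPM in WT against 39.3 and 34.2 TPM in A5-KO hILOs (log2 fold change -0.68, standard error 0.09, limma adjusted *p* = 0.022). *PTPRN2* (IA-2beta) was at 46.9 and 46.3 TPM in WT against 34.2 and 34.5 TPM in A5-KO, and passed on *p* (limma adjusted *p* = 0.021) with a 1.35-fold change, within the fold limit. *SV2A*, a transporter-like vesicle protein, was at 10.8 and 11.6 TPM in WT against 7.45 and 7.25 TPM in A5-KO, also past the *p* limit (limma adjusted *p* = 0.047) and at 1.46-fold within the fold limit. In these 3 genes no A5-KO library reached a WT library.

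The other vesicle proteins were not called. *SCAMP5*, a secretory carrier membrane protein and the most abundant member, was at 290 and 231 TPM in WT against 383 and 358 TPM in A5-KO hILOs (log2 fold change 0.52, limma adjusted *p* = 0.070). The WT libraries of *SCAMP5* were far apart, and both lay under the A5-KO libraries. *SYP* (synaptophysin), a common marker of endocrine and neural vesicles, was at 119 TPM in both WT libraries and at 127 and 126 TPM in A5-KO (log2 fold change 0.09, limma adjusted *p* = 0.22). *SYN1*, which ties vesicles to actin in neurons, stayed between 4.83 and 6.57 TPM in the 4 libraries. Same-strand overlap with an unnamed gene covers 24.9% of the exon bases of *SYN1* and 11.9% of those of *VAMP2*.

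The A5-KO libraries lay wholly below the WT libraries for 13 tested members, against 37.1% of all tested genes, and wholly above for 9, against 24.3%. The remaining 8 overlapped. Summed over the members, the TPM was 1393 and 1335 in WT and 1499 and 1415 in A5-KO hILOs, a sum led by *SCAMP5*. Over the same libraries, the 14 islet endocrine markers summed to 36370 and 38750 TPM in WT and to 30780 and 29510 TPM in A5-KO, with *INS*, *GCG*, *SST* and *PPY* lower, *NEUROD1* and *SCG2* higher and 7 of the 13 tested not called. *CHGA*, the granule protein that leads that sum, was at 18470 and 20800 TPM in WT against 18210 and 17010 TPM in A5-KO (limma adjusted *p* = 0.23). *INS* was at 13030 and 12980 TPM in WT against 7605 and 7606 TPM in A5-KO (limma adjusted *p* = 0.0021).

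Markers of other cell types were summed over the same libraries. The 15 neuronal markers summed to 993 and 1002 TPM in WT and to 1213 and 1173 TPM in A5-KO hILOs. Of the 11 tested, 3 were higher, 2 lower and 6 not called. In A5-KO this sum was led by *NEFM*, called higher, at 216.5 and 216 TPM in WT against 476.4 and 463.5 TPM. *STMN2*, which led it in WT, was at 450 and 457 TPM against 420 and 406 TPM and was not called. The 6 enterochromaffin markers summed to 1441 and 1430 TPM in WT against 1243 and 1174 TPM in A5-KO, with *TPH1* and *SLC18A1* lower. The 10 hepatic markers summed to 20590 and 20940 TPM in WT against 36230 and 35960 TPM in A5-KO, with 4 higher and 2 lower. That sum was led by *TTR*, called higher, at 7527 and 7550 TPM in WT against 18670 and 18750 TPM in A5-KO. No gene of these lists was at 0 in every library, and their part in the members' values was not tested. Exocrine and duct markers summed to 704 and 700 TPM in WT against 1003 and 967 TPM in A5-KO. *SPP1* was lower, *CEL* higher and 7 of the 9 tested were not called, among them *KRT19*, which led the sum. Mesenchymal markers summed to 273 and 270 TPM against 170 and 158 TPM, a sum led by *VIM*, which was called lower, whereas *COL1A2* and *LUM* were higher and 3 of the 6 tested were not called. Progenitor markers summed to 330 and 340 TPM against 326 and 325 TPM with 0 of the 7 tested called, and proliferation markers to 123 and 126 TPM against 67.7 and 69.6 TPM with 4 of 6 lower.

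**Figure D2:**
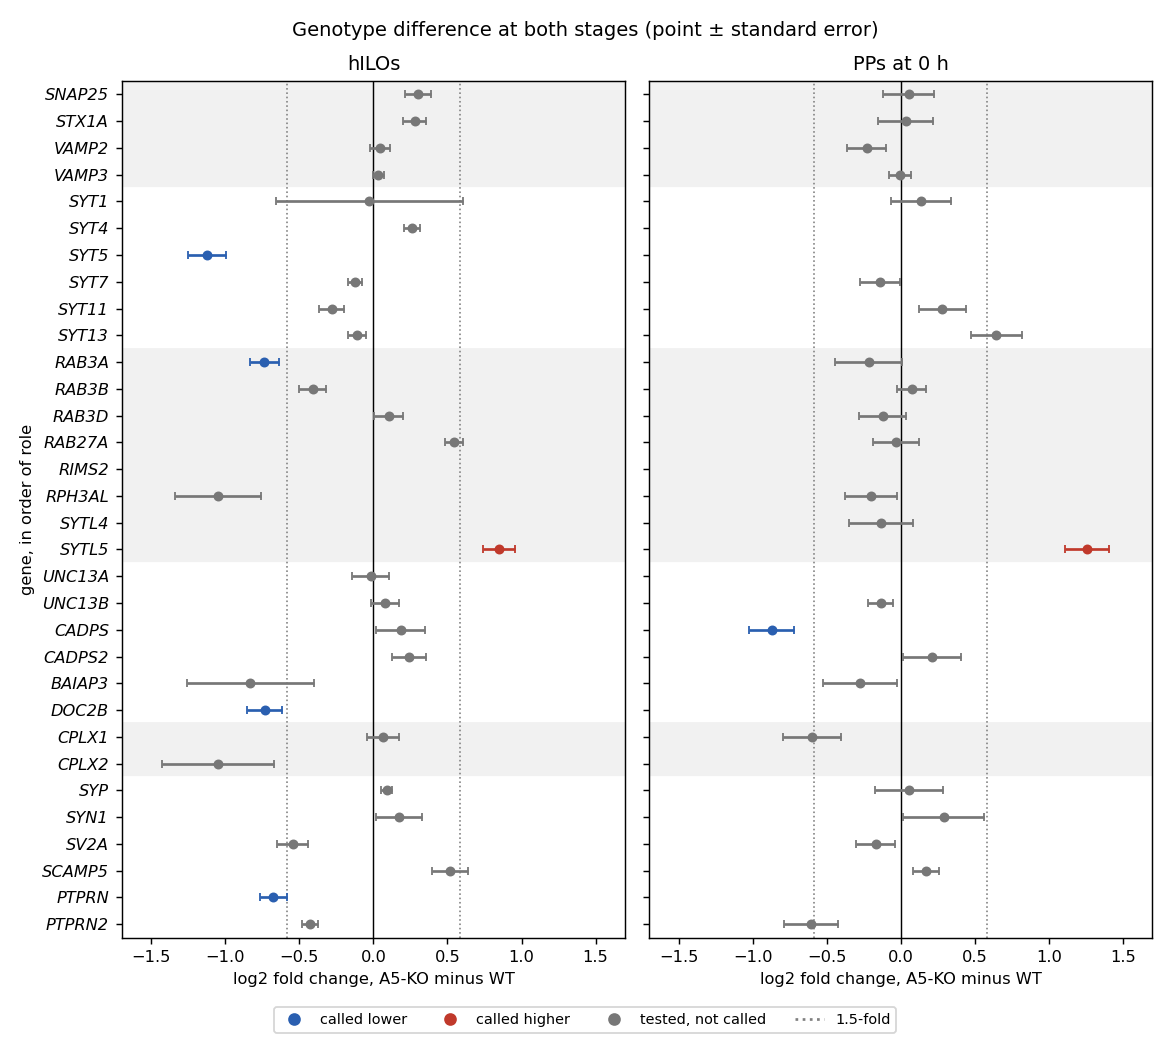
Log2 fold change (A5-KO minus WT) with its standard error for every tested member, in hILOs on the left (log2(TPM + 1), 30 genes) and in PPs at 0 h on the right (log2(CPM + 1), 25 genes), with dotted lines at 1.5-fold. *SYTL5* is called higher in both panels, and the other called genes, *SYT5*, *RAB3A*, *DOC2B* and *PTPRN* in hILOs and *CADPS* in PPs, are each called lower in 1 panel.

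In PPs before Act D, *SYTL5* was higher and *CADPS* was lower in A5-KO. *SYTL5* was at 6.72 and 5.67 CPM in WT against 15.9 and 16.4 CPM in A5-KO (log2 fold change 1.26, standard error 0.15, limma adjusted *p* = 0.0018). *CADPS* was at 16.9 and 16.2 CPM in WT against 7.66 and 9.58 CPM in A5-KO (log2 fold change -0.87, standard error 0.15, limma adjusted *p* = 0.014). The genotypes did not overlap for either gene. These were 1 member higher and 1 lower of 25 tested, against 1.57% of 13911 genes called higher and 1.13% called lower. The median log2 fold change was -0.03 over the members and 0.03 over all tested genes. *SYTL5* was called in all 15 alternative settings and *CADPS* in 14 of 15, missing without a filter on low values (limma adjusted *p* = 0.079).

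**Figure D3:**
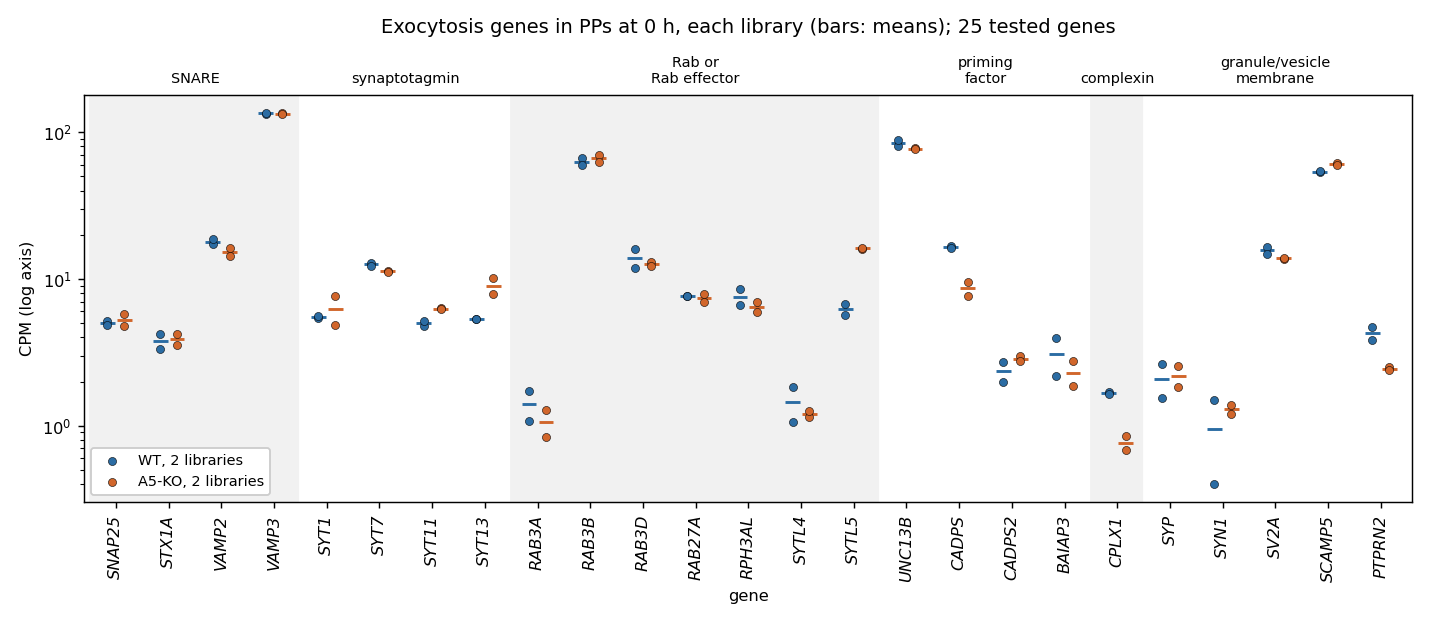
CPM of the 25 tested exocytosis genes in the 2 WT (blue) and 2 A5-KO (orange) PP libraries at 0 h on a log axis, grouped by role, with a bar at each mean. CPM is not divided by gene length, so heights are to be compared within a gene, where *SYTL5* lies higher and *CADPS* lower in A5-KO without overlap.

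The remaining abundant members of PPs were not called. *VAMP3* was at 134 and 135 CPM in WT against 135 and 132 CPM in A5-KO, and *VAMP2* at 17.3 and 18.7 CPM in WT against 16.2 and 14.2 CPM in A5-KO. *RAB3B* was at 66.1 and 59.8 CPM in WT against 70.2 and 62.5 CPM in A5-KO, and *RAB3D* ranged from 11.9 to 15.99 CPM over the 4 libraries. *UNC13B* was at 81.0 and 88.5 CPM in WT against 77.6 and 76.4 CPM in A5-KO. Of these, *VAMP2* and *UNC13B* had both A5-KO libraries below WT, with log2 fold changes of -0.23 and -0.14, and the others overlapped. *SCAMP5* was at 53.4 and 54.3 CPM in WT against 62.1 and 59.5 CPM in A5-KO, above WT in both libraries (log2 fold change 0.17, limma adjusted *p* = 0.34). *SYT7* was at 12.9 and 12.2 CPM in WT against 11.3 and 11.2 CPM in A5-KO, and *SV2A* at 16.6 and 14.7 CPM against 13.7 and 13.8 CPM. Both lay below WT in A5-KO without passing.

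*SYT13* came closest to a call among the others, at 5.31 and 5.36 CPM in WT against 10.1 and 7.88 CPM in A5-KO PPs (log2 fold change 0.65, standard error 0.17, limma adjusted *p* = 0.068). It passed in 4 alternatives. *PTPRN2*, at 3.82 and 4.71 CPM in WT against 2.50 and 2.40 CPM in A5-KO, had a log2 fold change of -0.60 (limma adjusted *p* = 0.11). *CPLX1*, at 1.69 and 1.64 CPM against 0.68 and 0.85 CPM, had -0.60 as well (limma adjusted *p* = 0.14). The tested members with A5-KO wholly below WT numbered 7, against 20.8% of all tested genes, and those wholly above numbered 5, against 29.0%.

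Part of the chain was below the level needed for a test in the progenitors. *SYT4*, *SYT5*, *RIMS2*, *UNC13A*, *DOC2B*, *CPLX2* and *PTPRN* were below 1 CPM in all 16 PP libraries and were not tested there. The highest of their values was 0.86 CPM, for *SYT4*, and *SYT5* never exceeded 0.06 CPM. A count of 0 allows up to 0.0852 to 0.0983 CPM in these libraries (3 reads, counting error only). Of these 7, all but *RIMS2* were tested in hILOs, and *SYT5*, *DOC2B* and *PTPRN* are among the 4 genes lower there. *INS*, *GCG* and *IAPP* were at 0 reads in the 4 libraries at 0 h, and the 14 endocrine markers summed to between 16.2 and 18.4 CPM. The neuronal markers summed to between 16.02 and 17.2 CPM, the hepatic markers to 1155 and 1215 CPM in WT against 1956 and 1995 CPM in A5-KO, the progenitor markers, led by *NKX6-1*, to 1161 and 903 CPM against 972 and 850 CPM, and the proliferation markers to between 955 and 1089 CPM. *ELAVL4* and *SLC17A6* among the neuronal markers were also at 0. Beside the higher *SYTL5* and lower *CADPS*, 5 of the 9 tested hepatic markers were higher, as were 3 of the 8 tested mesenchymal markers, and *ONECUT1* was lower among the progenitor markers. Their part in the members' values was not tested.

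Of the 24 members tested at both stages, *SYTL5*, *CADPS2* and *SCAMP5* had all A5-KO libraries above WT at both. *SYT7*, *SV2A* and *PTPRN2* had all A5-KO libraries below WT at both. Separation at a single stage was common over all tested genes. In hILOs 37.1% lay wholly below WT and 24.3% wholly above, and in PPs 20.8% and 29.0%. The share of all genes separated the same way at both stages was not computed, so these members are not shown to be unusual. Called changes at both stages were limited to *SYTL5*, with log2 fold changes of 0.85 on TPM in hILOs and 1.26 on CPM in PPs. *CADPS* was lower in PPs alone by this call, with a log2 fold change of 0.19 ± 0.17 (standard error) in hILOs, and the difference between the stages was not tested because the units differ.

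The family around the members was described with 94 further exocytosis genes. In hILOs 66 of them were tested, and 2 were lower, 1 was higher and 63 were not called. Of all tested genes, 4.09% were called lower and 2.70% higher. The higher gene was *RAB27B*, the close relative of *RAB27A* and a binding partner of SYTL proteins, at 15.9 and 13.3 TPM in WT against 43.2 and 38.7 TPM in A5-KO (log2 fold change 1.43, standard error 0.12, limma adjusted *p* = 0.0087). When a library was left out it passed in 1 of 4 cases, with limma adjusted *p* up to 0.058. The lower genes were *SYT17* and *SYTL1*, named after their values were seen, at 3.12 and 3.46 TPM against 0.19 and 0.13 TPM and at 3.09 and 3.05 TPM against 0.37 and 0.55 TPM, and neither passed with any library left out.

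In PPs 66 of the 94 were tested, and 1 was lower and 2 were higher, against 1.13% and 1.57% of all tested genes. *RAB27B* was at 13.3 and 11.1 CPM in WT against 30.4 and 27.4 CPM in A5-KO (log2 fold change 1.18, standard error 0.14, limma adjusted *p* = 0.0014), a call that held in all 15 alternatives. *UNC13C*, a Munc13 gene, was higher, at 1.72 and 1.46 CPM against 6.27 and 4.71 CPM (limma adjusted *p* = 0.0059). *VAMP5*, a SNARE of muscle and other tissues, was lower, at 15.9 and 17.1 CPM against 7.94 and 9.58 CPM (limma adjusted *p* = 0.014). With a library left out, *UNC13C* passed in 4 of 4 cases and *VAMP5* in 3 of 4. The median log2 fold change over the tested genes of this list was 0.05 in hILOs and 0.03 in PPs.

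Act D was used to follow the mRNA already made. For each member a line was fitted to log2(CPM + 0.1) over 0 to 3 h in each genotype, and the slopes were compared. These slopes are relative to the summed gene reads of a library. A positive slope thus means a slower loss than that of the library as a whole. The study fitted its decay values to ERCC spike-in RNAs, which were not used here. Of 25 members tested, none had a lower slope in A5-KO and none a higher slope by limma, against 2.61% and 0.0661% of 13620 genes. At an unadjusted *p* below 0.05 by limma, *SYTL5* had a lower and *UNC13B* a higher slope in A5-KO. Of all tested genes, 20.0% had a lower and 2.36% a higher slope. Neither member fell in A5-KO, with slopes of 0.00 per h for *SYTL5* and 0.16 per h for *UNC13B*, against 0.23 and 0.02 per h in WT. The median slope difference was 0.00 over the members and -0.07 over all tested genes. Under median-of-ratios scaling these medians were 0.07 and 0.0025, so both depend on how the libraries are scaled.

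**Figure D4:**
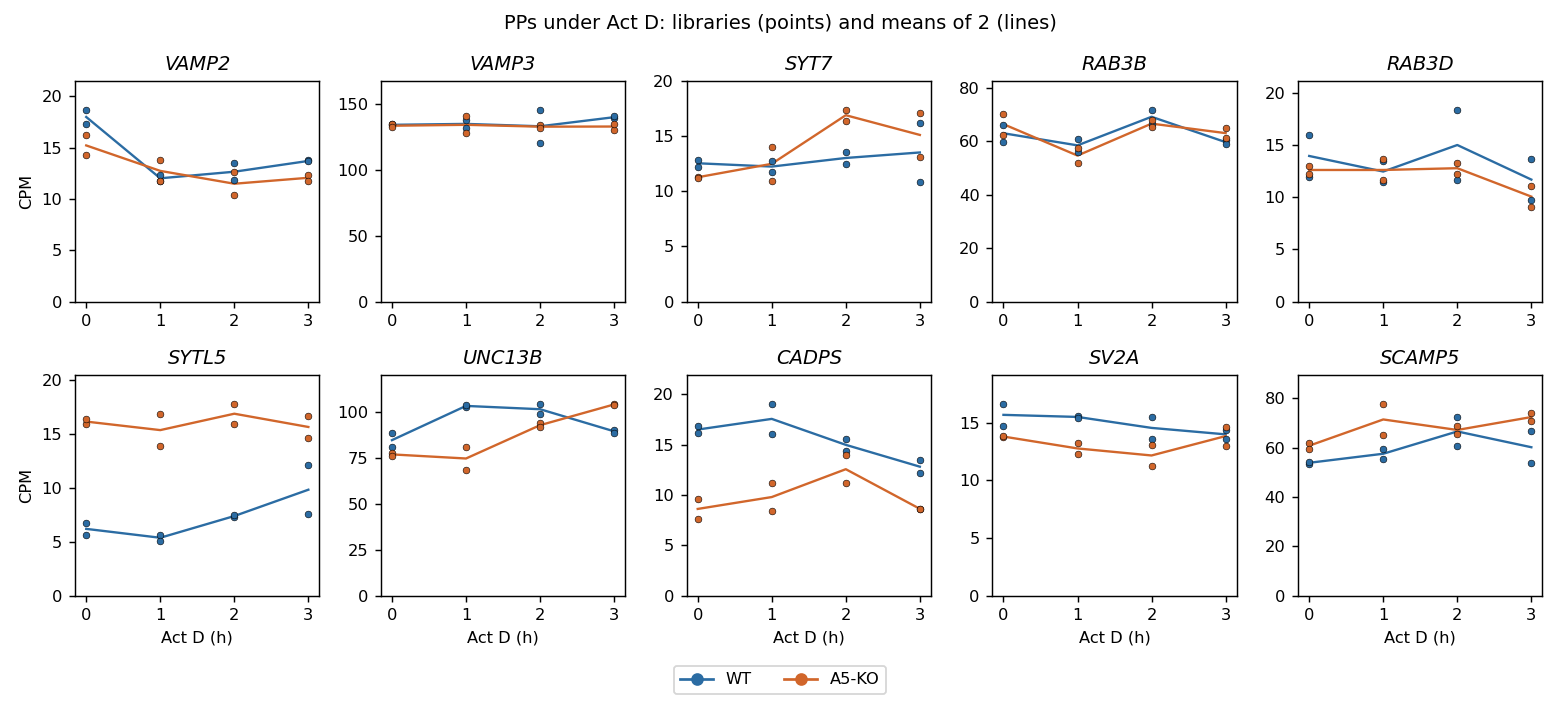
CPM of the 10 members with at least 10 CPM at 0 h in either genotype, against hours of Act D (0, 1, 2, 3), with points for libraries and lines through the means of WT (blue) and A5-KO (orange). *SYTL5* stays higher in A5-KO and *VAMP3* stays between 121 and 146 CPM in both genotypes, whereas *UNC13B* has its highest A5-KO points at 3 h.

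*SYTL5* ran at 16.1, 15.4, 16.9 and 15.6 CPM (means of 2 libraries) from 0 to 3 h in A5-KO and at 6.19, 5.37, 7.38 and 9.82 CPM in WT. The A5-KO means stayed within 15.4 to 16.9 CPM, and the WT mean at 3 h came from libraries at 7.55 and 12.1 CPM. The slope difference was -0.23 per h (standard error 0.10, unadjusted *p* = 0.032, limma adjusted *p* = 0.18), and it was 0.12 when the fit used 0 and 1 h alone.

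*UNC13B* ran at 77.0, 74.8, 92.9 and 104 CPM in A5-KO and at 84.8, 103, 102 and 89.6 CPM in WT. Its highest mean was thus at 3 h in A5-KO and at 1 h in WT. The slope difference was 0.14 per h (standard error 0.06, unadjusted *p* = 0.027, limma adjusted *p* = 0.16). With 0 and 3 h alone it was called, and with 0 and 1 h alone it was -0.33.

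*CADPS* ran at 16.5, 17.6, 15.0 and 12.8 CPM in WT against 8.62, 9.80, 12.6 and 8.63 CPM in A5-KO, so the genotypes were apart at every time, least at 2 h. The slope difference was 0.17 ± 0.10 per h (standard error). *VAMP3* stayed between 121 and 146 CPM in all 16 libraries, with slopes of 0.02 ± 0.03 per h in WT and 0.00 ± 0.03 per h in A5-KO. *VAMP2* had means of 18.0 CPM at 0 h and 12.0 CPM at 1 h in WT, and of 15.2 and 12.7 CPM in A5-KO.

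The values of the others at 0 and 3 h were as follows. *SYT7* ran from 12.6 to 13.5 CPM in WT and from 11.3 to 15.1 CPM in A5-KO between 0 and 3 h, *SCAMP5* from 53.9 to 60.2 CPM and from 60.8 to 72.4 CPM, and *RAB3B* from 63.0 to 59.6 CPM and from 66.4 to 63.0 CPM. *SV2A* ran from 15.7 to 14.0 CPM in WT and at 13.8, 12.8, 12.15 and 13.8 CPM from 0 to 3 h in A5-KO, and *RAB3D* went from 13.9 to 11.7 CPM and from 12.6 to 10.1 CPM. Among members under 10 CPM, *STX1A* had a slope of -0.32 ± 0.10 per h in A5-KO and -0.10 ± 0.10 per h in WT, and *SYT1* one of -0.30 ± 0.09 per h and -0.06 ± 0.09 per h (standard errors). Both falls passed within A5-KO (limma adjusted *p* = 0.011 and 0.017), but the slope differences of *STX1A* and *SYT1* did not (limma adjusted *p* = 0.35 and 0.30). Falls relative to the library total were common in A5-KO, counted by limma for 37.1% of the 13620 genes against 0.11% in WT. Rises were counted for 7.44% and 0.132%. These counts are taken within each genotype and do not compare the genotypes. The median slope over all tested genes was -0.08 per h in A5-KO and -0.03 per h in WT. *SYT7* and *UNC13B* rose in A5-KO, at 0.17 ± 0.06 and 0.16 ± 0.04 per h (limma adjusted *p* = 0.043 and 0.0041). In WT these were at 0.03 ± 0.06 and 0.02 ± 0.04 per h, and the slope differences did not pass (limma adjusted *p* = 0.40 and 0.16).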

How the data were processed

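RNA-seq of WT and A5-KO hILOs (2 libraries each) and PPs (16 libraries) was analysed. The labels number 2 replicates per group. The study's text calls those of PP decay biological replicates, and no source used here says that the hILO libraries came from separate cultures, so *p* values measure only the spread between libraries, which may be technical. The authors trimmed reads with fastp, aligned them to hg38 with HISAT2 (2.1.0) and deposited TPM per gene for hILOs, quantified with StringTie. For PPs the authors deposited CPM per gene, and these values gave back whole reads for 100% of values within 0.1 read. The annotation release and the step that gave CPM were not given in the sources used here. TPM totals were 924887 and 922614 in WT and 897038 and 887320 in A5-KO, and values were used as deposited. The lower A5-KO totals thus enter the hILO differences and the counts of members wholly below or above WT. The median log2 fold change over all tested hILO genes was -0.06 as deposited and -0.004 under median-of-ratios scaling.

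The members and gene lists were chosen with earlier results of these data known. Genes with a mean of at least 1 were fitted in R (4.3.3) with limma (3.58.1), its eBayes step using a trend, on log2(TPM + 1) or log2(CPM + 1), or on log2(CPM + 0.1) for Act D slopes, and *p* values were adjusted over all genes fitted. edgeR (4.0.16) and DESeq2 (1.42.0) on recovered reads were alternatives, as were other pseudocounts, filters, scalings, time points and each library left out. The code was tested on simulated data. All 32 members are named. Values per library are given for called members and those with a mean of at least 10, and others by range, with *SYT1*, *STX1A*, *CPLX1*, *CPLX2*, *SYT13* and *PTPRN2* of the lower ones added after their values were seen. Of the further exocytosis genes, called ones with a mean of at least 5 are named, at most 3 per direction, and exceptions are stated. RE1-like letters were searched in RefSeq promoters, and the wider window was chosen after seeing the data. Coordinates follow GENCODE v44 on GRCh38. The deviations of libraries sharing a number correlated at 0.04 in hILOs. In PPs they correlated at 0.29 at 0 h, the time used to compare the genotypes, and at -0.02, -0.11 and 0 at 1, 2 and 3 h. The numbers were not taken as pairs, and a replicate block was run as an alternative. Protein sequences were not used here, and the values of 1 marker gene are not reported here.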

Additional observations from a re-analysis of the deposited data

Results flagged for a closer look

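For *SYT11*, both A5-KO libraries were below WT in hILOs (log2 fold change -0.28) and both were above WT in PPs at 0 h (0.28). For *SYT13*, the same held, with -0.11 in hILOs and 0.65 in PPs at 0 h. What drew attention in each case was that every library moved one way at a stage and the opposite way at the other. Separation at a stage was common, with 37.1% of all tested genes wholly below WT in hILOs and 29.0% wholly above WT in PPs. The share of all genes with opposite separation was not computed, so these cases are not shown to be unusual. The difference between the stages was not tested, since the values are TPM in hILOs and CPM in PPs, and neither gene passed at either stage.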

How the results depend on the processing

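With a pseudocount of 5, 2 members were lower in hILOs in place of 4. Without a filter on low values, 0 were lower and 0 higher in hILOs (5 and 1 at an unadjusted *p* below 0.05 by limma) and 0 lower in PPs (3 unadjusted), with more genes in the adjustment. Median-of-ratios scaling and quantile normalization each gave 2 higher in hILOs, with *RAB27A* added. The replicate block gave 2 lower (*PTPRN* and *RPH3AL*) and 0 higher in hILOs (5 and 1 unadjusted), and 2 lower and 2 higher in PPs, where *PTPRN2* and *SYT13* were added. Leaving out 1 library gave 0 to 0 lower and 0 to 0 higher in hILOs (4 to 6 and 1 to 2 unadjusted), and 1 to 2 higher in PPs. In PPs, 2 were higher in the fit of all 16 libraries and by DESeq2, with *SYT13* added. With 0 and 3 h alone, 1 member, *UNC13B*, had a higher slope in A5-KO in place of 0. Over all genes, the hILO calls of 707 lower and 467 higher lay between 96 and 714 and between 83 and 572 over the alternatives. The 355 slopes lower in A5-KO lay between 0 and 2737. With 5 mismatches, 4 of the 23 members with a RefSeq promoter held an RE1-like stretch in place of 1, against 5.26% of genes, and within 5000 bases 23 of 32 did, against 58.0%. A lone library of a group is assumed to vary like the others.

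No called value changed direction, and uncalled ones did. Under median-of-ratios scaling these were *UNC13A* in hILOs (0.04), *STX1A* in PPs (0.00) and the slope differences of *RAB3D* (0.03), *VAMP2* (0.06) and *VAMP3* (0.05). Under quantile normalization they were *SYT1* (0.08) and *UNC13A* (0.06) in hILOs and *STX1A* in PPs (-0.01). With 0 and 1 h alone the slope differences were -0.17 for *RAB3B*, 0.15 for *RAB3D*, -0.10 for *SV2A*, 0.12 for *SYTL5*, -0.33 for *UNC13B* and 0.32 for *VAMP2* among the members with at least 10 CPM, and with 0 and 3 h alone 0.02 for *VAMP2*, -0.02 for *RAB27A* and -0.01 for *SYTL4*. Of the less abundant members, 0 and 1 h alone turned the slope difference to 0.29 for *STX1A* and 0.03 for *SYT1*, and also to 0.52 for *SYN1*, 0.81 for *RAB3A*, 0.40 for *RPH3AL*, 0.29 for *CADPS2*, -0.41 for *RAB27A*, -0.66 for *SYP* and -0.58 for *SYTL4*, with *SNAP25* at -0.03 (limma adjusted *p* of at least 0.58 for these 10). With 1 library left out, the hILO log2 fold changes spanned -0.02 to 0.15 for *CPLX1*, -0.67 to 0.56 for *SYT1*, -0.05 to 0.01 for *UNC13A* and -0.03 to 0.19 for *UNC13B*. Those of PPs spanned -0.59 to 0.04 for *BAIAP3*, -0.11 to 0.04 for *RAB27A*, -0.01 to 0.16 for *RAB3B*, -0.32 to 0.08 for *RAB3D*, -0.07 to 0.17 for *SNAP25*, -0.10 to 0.17 for *STX1A*, -0.12 to 0.35 for *SYN1*, -0.20 to 0.31 for *SYP*, -0.14 to 0.41 for *SYT1*, -0.36 to 0.09 for *SYTL4* and -0.02 to 0.01 for *VAMP3*. Slope differences spanned -0.01 to 0.05 for *RAB3B*, -0.12 to 0.01 for *RAB3D*, -0.05 to 0.02 for *SCAMP5* and -0.06 to 0.03 for *VAMP2*. The cause was not tested.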
